A study of Mus musculus with 3 samples.

Results

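Adhesion G protein-coupled receptors were examined in endothelial cells of the adult mouse renal medulla. The members were the genes whose current symbol has the form Adgr followed by a subfamily letter (a, b, c, d, e, f, g, l or v) and a number, each represented by the probe set with the highest mean among those annotated to that gene alone. Of 27 symbols of this form in the RefSeq gene table, 25 had such a probe set, among 19938 genes measured in all. Adgrf3 and Adgrg5 were not analysed here.

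The samples were 3 microarrays of 1 group, so no condition was set against another. The mice were adult males of the FVB/N strain carrying the transgene Tg(TIE2GFP)287Sato, in which the promoter of Tie2 (Tek), an angiopoietin receptor of endothelial cells, drives green fluorescent protein. Each array held RNA from a pool of 2 kidneys, whose medulla was dissected, dissociated with collagenase A and sorted for green cells, so the population was defined by that promoter alone. Levels were log2 values, and the question put to each receptor was whether its level lay above 2 limits, 100 units (log2 6.64) and a background limit of 247 units (log2 7.95). The number 100 is the raw level in the filter of the study, but whether raw levels there have the scale of the deposited values is not stated, so counts at 100 units need not equal a filter on that raw level. That second limit was set at the 95th percentile over 1247 probe sets of odorant, vomeronasal and taste receptors, genes best known from sensory cells, of which 34.7% lay at or above 100 units on all 3 arrays. Levels were compared with these limits and not with one another, because probe sets differ in affinity.

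Adhesion receptors carry a long extracellular part, built from domains that bind matrix or neighbouring cells, joined to a membrane-spanning core that signals through G proteins. In most members a GAIN domain next to the membrane cuts the protein into a pair of fragments that stay together, and a short stretch behind the cut can act as a tethered agonist when the outer fragment is pulled or released. In blood vessels the family is known chiefly for Adgrl4 (formerly Eltd1), Adgrf5 (Gpr116) and Adgra2 (Gpr124), which have been linked to vessel growth, endothelial barrier function and the formation of brain vessels.

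Promoter sequence from RefSeq (GRCm38.p6) is shown for 3 members with levels past both limits on every array and for 1 member under both. Capitals mark CAGGAA or CCGGAA, or the reverse complement of either, which are cores of the kind that ETS transcription factors bind; ETS factors act widely in endothelial genes. Adgrl4 is shown for chr3:151437632-151437881, plus strand, Adgrf5 for chr17:43360181-43360328, plus strand, Adgrl1 for chr8:83899848-83900097, plus strand, and Adgre4, the member under both limits, for chr17:55749734-55749983, plus strand. The run of Adgrf5 ends at the last base before the first annotated start of the gene. The other runs are whole windows of 250 bases and end no later than that base of their own gene. The runs are examples. Adgra3, with a match, and Adgra1 and Adgrb2, without one, also had levels past both limits on every array and are not shown.
Adgrl4: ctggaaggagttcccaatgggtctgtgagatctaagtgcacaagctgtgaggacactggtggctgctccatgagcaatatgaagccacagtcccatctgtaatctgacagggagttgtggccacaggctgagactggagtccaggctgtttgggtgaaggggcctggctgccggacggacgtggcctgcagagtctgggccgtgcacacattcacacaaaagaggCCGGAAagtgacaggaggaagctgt
Adgrf5: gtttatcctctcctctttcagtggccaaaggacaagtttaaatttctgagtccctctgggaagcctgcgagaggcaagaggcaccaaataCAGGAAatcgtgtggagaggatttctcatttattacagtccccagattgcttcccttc
Adgrl1: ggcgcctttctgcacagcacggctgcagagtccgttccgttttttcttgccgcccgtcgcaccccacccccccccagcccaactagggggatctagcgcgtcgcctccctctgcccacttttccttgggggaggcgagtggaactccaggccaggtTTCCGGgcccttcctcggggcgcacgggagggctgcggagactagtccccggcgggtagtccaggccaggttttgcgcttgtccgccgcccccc
Adgre4: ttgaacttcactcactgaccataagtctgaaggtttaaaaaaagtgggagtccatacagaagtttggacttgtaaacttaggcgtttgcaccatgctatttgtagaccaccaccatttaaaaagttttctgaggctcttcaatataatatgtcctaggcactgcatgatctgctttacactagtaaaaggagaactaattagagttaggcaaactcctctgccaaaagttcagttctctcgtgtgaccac

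A promoter window was held for 19 members, 23 windows in all, and the 250 bases before each start were searched on both strands for the letters CAGGAA and CCGGAA, which cannot share bases with each other, although CCGGAA can overlap its own reverse complement. Over all 32851 windows of that length, 35.1% held at least 1 of them, 25.7% CAGGAA and 12.0% CCGGAA. Of the member windows, 11 of 23 held a match. By gene, a match was present for 10 of 19 members, which were 7 of the 9 members past the background limit on all arrays (Adgra3, Adgrf5, Adgrg1, Adgrg3, Adgrl1, Adgrl2 and Adgrl4, but not Adgra1 or Adgrb2) and 3 of the 10 others (Adgrf1, Adgrg4 and Adgrg7). No share by gene was taken over all genes past or under the limit, so whether this split is particular to the receptors was not tested. The 35.1% counts windows, whereas a gene with several windows has more chances of a match. The motifs were chosen with sequences in view and the counts are a description of letters, with no test of binding. Adgra2, Adgrb1, Adgrd1, Adgre1, Adgre5 and Adgrf2 had no entry.

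The gene map placed several members side by side. In the same annotation no protein-coding gene was listed between Adgrl2 and Adgrl4 on chromosome 3, between Adgre5 and Adgrl1 on chromosome 8, between Adgrg1 and Adgrg3 on chromosome 8, or between the pairs Adgrf4 and Adgrf2, and Adgrf1 and Adgrf5, on chromosome 17. Neighbours shared a side of the limits in every one of these pairs except Adgrf1 and Adgrf5. Adgrf5 lay above both limits while adjacent Adgrf1 was called below the background limit. By contrast, Adgrg1 and Adgrg3, Adgre5 and Adgrl1, and Adgrl2 and Adgrl4 lay above both, and Adgrf4 and Adgrf2 lay under both.

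Of the 25 members, 17 (68%) had a level of at least 100 units on all 3 arrays, against 85.4% of all genes, and 8 lay under it on all 3 arrays, against 13.9%. The background limit was reached on all arrays by 12 members (48%), against 54.9% of all genes, 11 lay under it on all arrays, against 42.5%, and Adgrb1 and Adgrg6 lay on either side of it in different arrays. By limma's moderated test against each limit (adjusted over all genes, threshold 0.05), 16 members were called above 100 units, against 84.5% of genes, and 8 below, against 13.7%, while Adgrf1 was not called. Against the background limit 12 were called above, with 52.5% of all genes called, and 11 below, with 41.4%. The shares of members above the limits were thus somewhat smaller than those of all genes, and the median level was log2 7.99 against 8.15. Where the prior variance of limma came from genes with 3 different values, 16 members were called above 100 units (83% of all genes) and 4 below (12%), and 10 above the background limit (49.7%) and 11 below (37.9%). The 16 were not the same members, since Adgrf1 was then called above 100 units (adjusted p = 0.0229) and Adgrg4 was not (adjusted p = 0.461). By subfamily, the limit of background was passed on all arrays by all 3 members of A, 1 of 3 of B, the single member of D, 1 of 3 of E, 1 of 4 of F, 2 of 6 of G, 3 of 4 of L and not by Adgrv1.

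**Figure D1:**
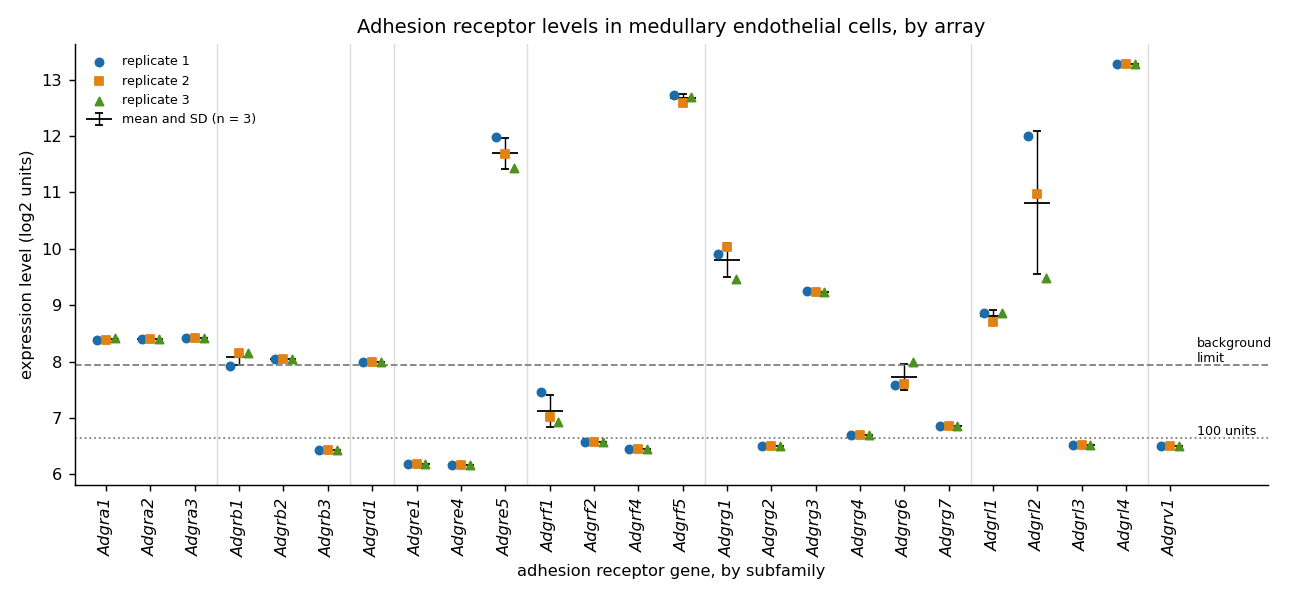
Expression level (log2 units, y axis) of the 25 measured adhesion receptor genes (x axis, grouped by subfamily) on the arrays of replicates 1, 2 and 3, with mean and SD as black bars; the dashed line is the background limit (log2 7.95) and the dotted line 100 units (log2 6.64). Adgrl4, Adgrf5, Adgre5 and Adgrl2 sit clear of both lines, 8 members sit under both, and Adgrl2 has the widest span of the members.

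Among the receptors linked to vessels, Adgrl4 is an endothelial member with a short outer part that has been linked to vessel sprouting. Its level was log2 13.28 on each of the 3 arrays (mean 13.28 ± 0.000196, SD, n = 3; 9934 units), with the arrays of replicates 1 and 3 sharing one value and replicate 2 below it by less than the last printed digit. The level was 99.3 times the limit of 100 units, and limma's adjusted p against the background limit was 1.61e-10, which rests on the near absence of spread. It was 2.81e-05 under the prior from genes with 3 different values and at most 1.97e-05 with 1 array left out.

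Adgrf5, an endothelial and lung epithelial receptor needed to keep surfactant in balance, was at 12.72, 12.58 and 12.70 in replicates 1, 2 and 3, a mean of 12.67 ± 0.07 (SD, n = 3; 6511 units). Replicate 2 was the lowest, and all 3 arrays were far above both limits. The adjusted p by limma was 4.81e-05 against the background limit, and at most 0.0113 with any 1 array left out.

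Adgra2 is the receptor that with Reck lets brain endothelium respond to Wnt7, and it was at log2 8.40 on every array, just above the background limit. Its sister genes Adgra1, a receptor mostly known from neurons, and Adgra3, linked to Wnt and cell polarity signaling, were as close to the limit. Adgra1 was at 8.38, 8.38 and 8.43, with replicate 3 the highest, and Adgra3 was at 8.42 on each array. All 3 were called above both limits by limma, but their margins over the background limit were 0.45 for Adgra1, 0.45 for Adgra2 and 0.47 for Adgra3, and with the 99th percentile of the sensory receptors in its place all 3 lay below it.

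The latrophilins Adgrl1, Adgrl2 and Adgrl3 bind teneurins and FLRT proteins on neighbouring cells and are best known at synapses. Adgrl1 was at 8.87, 8.70 and 8.87, a mean of 8.81 ± 0.10 (SD, n = 3; 450 units), with replicate 2 the lowest. It was called above the background limit by limma (adjusted p = 0.00268), a call lost without replicate 1 (adjusted p = 0.0629) or without replicate 3 (adjusted p = 0.0634). The call was kept without replicate 2, when the remaining arrays held one value. These fits therefore cannot tell dependence on 1 array from that tie. Adgrl3 was at 6.52 on every array, under both limits.

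Adgrl2, which has been linked to heart valve formation and vessel barrier besides synapses, varied most among the members. Its level was 12.00 in replicate 1, 10.98 in replicate 2 and 9.48 in replicate 3, a mean of 10.82 ± 1.27 (SD, n = 3; 1807 units). Replicate 1 was thus 5.71-fold above replicate 3, and all 3 arrays lay above both limits. Only 10 of the 19938 genes had a larger SD. limma called it above 100 units (adjusted p = 0.0201) and above the background limit (adjusted p = 0.0458), and both calls were lost whichever array was left out. Against the background limit the adjusted p was 0.195 without replicate 1, 0.262 without replicate 2 and 0.0895 without replicate 3.

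The array holds 8 single-gene probe sets for Adgrl2, which is the sole member with more than 1. All 8 were at 100 units or more on every array, and 5 were past the background limit on every array. Replicate 1 was above replicate 3 in 7 of the 8 and below it in 1, and replicate 3 was the lowest in 6. The probe set that went the other way, 10502770, was at 7.71, 8.45 and 9.49 in replicates 1, 2 and 3. Probe set 10502772 was at 9.74, 10.28 and 7.42, so replicate 2 was its highest, and probe set 10502748 was at 9.41, 9.41 and 9.36, nearly level across the arrays. The parts of the transcript read by each probe set were not in the tables used. With the mean of the 8 probe sets Adgrl2 was 1.46 above the background limit on the log2 scale and was not called, and with the probe set of the lowest mean it was -0.35 from it.

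Some markers of the thick ascending limb, a tubule segment that runs through the medulla, had the same order of arrays. Umod, which encodes the urinary protein of that segment, was at 11.61, 10.40 and 9.49 in replicates 1, 2 and 3, and Slc12a1, its sodium, potassium and chloride cotransporter, at 9.68, 8.07 and 7.81. Of the other markers in the list, Kcnj1 was at 8.84 on every array, Cldn16 was lowest in replicate 1 and Cldn10 highest in replicate 2. Over the 5 markers the summed level was 4968, 2780 and 1929 units. That fall followed Umod (3122, 1348 and 721 units) and Slc12a1 (819, 269 and 224 units), and the other markers did not hold this order. By limma 3 of 5 were called above the background limit, against 52.5% of all genes, and 1 below it, against 41.4%. All 5 were above 100 units on every array. The 12 endothelial markers were all called above both limits and their mean level was 12.06, 11.92 and 11.93. The order of replicate 1 highest, 2 in the middle and 3 lowest was held by 2 of the 5 thick limb markers and 3 of the 12 endothelial markers. It was also held by 1 of 5 podocyte, 1 of 6 intercalated cell and 1 of 10 granulocyte markers, and by 4.45% of all genes. Replicate 1 was the highest in 8 of the 12 endothelial markers. The part of tubule RNA in the Adgrl2 values was not tested, and in pooled cells a change in the share of a cell type and a change in RNA per cell cannot be told apart.

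**Figure D2:**
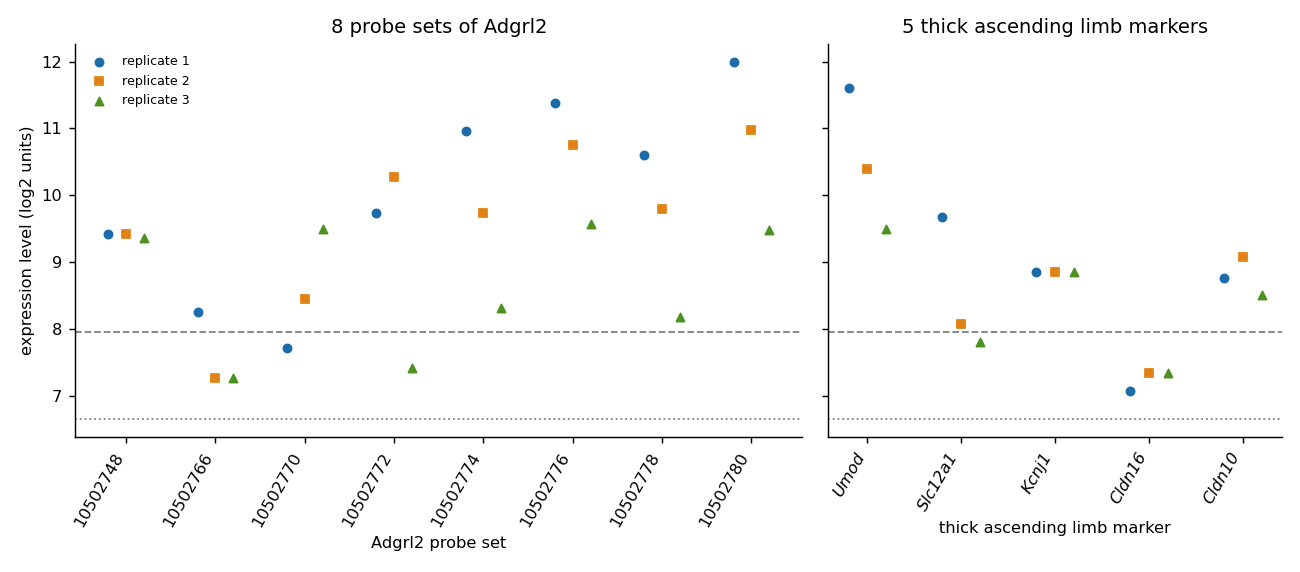
Level (log2 units, y axes) of the 8 probe sets of Adgrl2 (left, x axis by probe set number) and of 5 thick ascending limb markers (right) on the arrays of replicates 1, 2 and 3, with the background limit dashed and 100 units dotted. Replicate 1 is above replicate 3 in 7 of the 8 probe sets, as it is in Umod and Slc12a1, whereas probe set 10502770 runs the other way and Kcnj1 is level.

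Adgre5 (formerly Cd97), which binds Cd55, Thy1 and integrins and is found on leukocytes and many other cells, was at 11.98, 11.69 and 11.43, a mean of 11.70 ± 0.28 (SD, n = 3; 3321 units). Replicate 1 was the highest and replicate 3 the lowest, 1.47-fold apart, and all 3 arrays were far above the limits. The adjusted p by limma was 0.00118 against the background limit and at most 0.0490 with 1 array left out. The order of replicate 1 highest, 2 in the middle and 3 lowest was held by Adgre5, Adgrl2 and Adgrf1, 3 of the 25 members (12%), and by 4.45% of all genes.

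The other members of subfamily E are receptors of myeloid cells. Adgre1, which encodes the macrophage antigen F4/80, was at 6.18 on every array, and Adgre4 was at 6.17 on every array, so both lay under 100 units. For the 10 other myeloid markers in the list, every array was at 100 units or more. Ptprc was at 6.68 and Cd68 at 7.99 on every array, and Csf1r at 7.54, 7.55 and 7.54. By limma 2 of the 10 were called above the background limit, against 52.5% of all genes, and 8 below it, against 41.4%. Under the prior from genes with 3 different values, 0 were called above it (49.7% of all genes), 6 below it (37.9%) and 4 were not called. The same value on all arrays was held by 8 of the 10. Over that list the mean level was 7.43, 7.48 and 7.44 in replicates 1, 2 and 3. Across the 75 measured markers of cell types other than endothelium, 22 were called above the background limit, against 52.5% of all genes, and 48 below it, against 41.4%.

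Subfamily G holds receptors for collagen and transglutaminase. Adgrg1 (Gpr56), which binds collagen III and transglutaminase 2 and is known from neural progenitors and platelets, was at 9.91, 10.03 and 9.47, a mean of 9.80 ± 0.30 (SD, n = 3; 894 units). Replicate 3 was the lowest and replicate 2 the highest. limma called it above the background limit (adjusted p = 0.00564), and the call was lost without replicate 1 (adjusted p = 0.0959) or replicate 2 (adjusted p = 0.0801). Without replicate 1 the call above 100 units was lost too (adjusted p = 0.0528). Among platelet and red cell markers, Pf4 was at 6.56, 6.38 and 6.38 and Itga2b at 8.23, 8.24 and 8.24. By limma 3 of 5 were called above the background limit, against 52.5% of all genes, and 2 below it, against 41.4%.

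Adgrg3 (Gpr97), a receptor known from granulocytes, was at 9.25, 9.23 and 9.23, a mean of 9.24 ± 0.01 (SD, n = 3; 603 units). All 3 arrays were above both limits, with an adjusted p by limma of 2.20e-05 against the background limit. Of the 10 granulocyte markers, 1 was called above that limit, against 52.5% of all genes, and 9 below it, against 41.4%.

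Adgrg6 (Gpr126), which Schwann cells need to form myelin and which binds collagen IV and laminin, was at 7.59, 7.60 and 7.99, a mean of 7.73 ± 0.23 (SD, n = 3; 212 units). Replicate 3 alone passed the background limit. limma called the level above 100 units (adjusted p = 0.00916), a call lost without replicate 1 (adjusted p = 0.0980) or replicate 2 (adjusted p = 0.0998), and did not call it on either side of the background limit (adjusted p = 0.208), though without replicate 3 it was called below (adjusted p = 0.00477). Adgrg4 was at 6.69 and Adgrg7 at 6.86 on average, both just above 100 units and below the background limit. Adgrg2, known from the epididymis, was at 6.50 on every array and under both.

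The brain receptors of subfamily B include Adgrb1, which recognises dying cells and signals through Elmo and Dock proteins. It was at 7.93, 8.15 and 8.15, a mean of 8.07 ± 0.13 (SD, n = 3), with replicate 1 just under the background limit and the others just over it. It was called above 100 units by limma (adjusted p = 0.00147) but not above the background limit (adjusted p = 0.194), and it was called above it, by 0.20, without replicate 1, when the remaining arrays held one value. Adgrb2 was at 8.05 on every array, 0.11 above the limit, and Adgrb3 at 6.43 on every array, under 100 units. Adgrd1, a receptor that couples to the adenylyl cyclase pathway, was at 7.99 on every array, 0.04 above the background limit. Neither Adgrb2 nor Adgrd1 was called above that limit under the prior from genes with 3 different values.

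In subfamily F, apart from Adgrf5, Adgrf1 (Gpr110) was at 7.46, 7.01 and 6.93, a mean of 7.13 ± 0.28 (SD, n = 3). Replicate 1 was the highest, all 3 arrays were above 100 units and all 3 were under the background limit. limma did not call it above 100 units (adjusted p = 0.0757) and called it below the background limit (adjusted p = 0.0284), a call lost without replicate 2 (adjusted p = 0.209) or replicate 3 (adjusted p = 0.186). Adgrf2 was at 6.57 and Adgrf4 at 6.45 on every array. Adgrv1, the very large receptor of hair cells and photoreceptors, was at 6.50 on every array, so all 3 were under 100 units.

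Many members had no spread between arrays, in a share close to that of all genes. Of the 25 members 13 (52%) had the same value on all 3 arrays, as did 46.3% of all genes, so their error is likely understated. The 12 others had a median SD of 0.11 on the log2 scale, against 0.08 over all genes with any spread. The same-value members reach from Adgra3 at 8.42 down to Adgre4 at 6.17, and the 4 members with a mean above log2 10 had SDs from 0.000196 (Adgrl4) to 1.27 (Adgrl2).

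**Figure D3:**
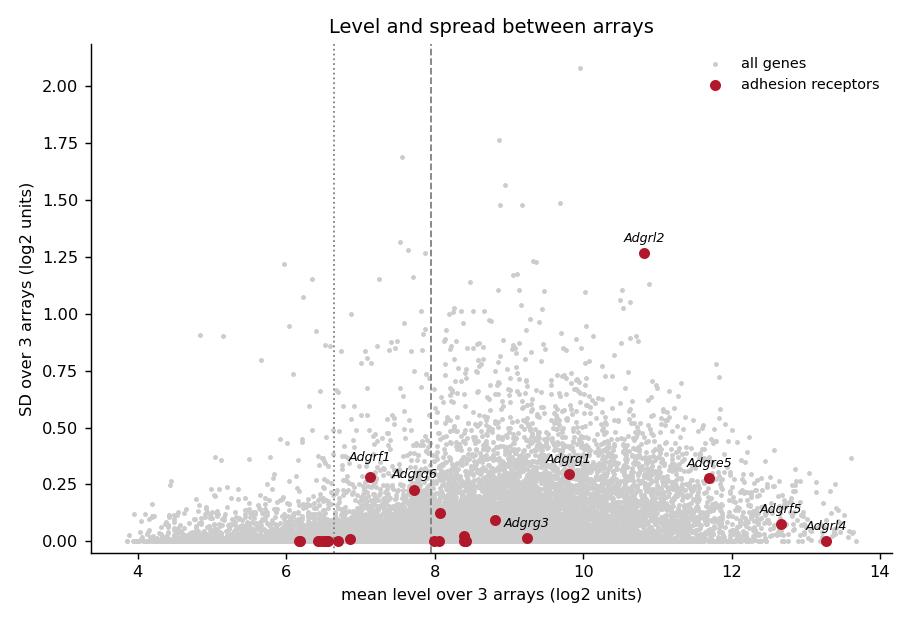
Mean level over 3 arrays (log2 units, x axis) against the SD over the arrays (log2 units, y axis) for 19938 genes in grey and the 25 adhesion receptors in red, with 100 units dotted and the background limit dashed. Adgrl2 stands at an SD of 1.27 with 10 genes above it, while Adgrl4 and Adgrf5 lie near the floor of the plot at high mean levels.

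The genes that encode known ligands and partners were read in the same way. Of 35 measured ligands and partners, 33 were at 100 units or more on all arrays, against 85.4% of all genes, and 24 were past the background limit on all arrays, against 54.9%. By limma 24 of the 35 were called above that limit, against 52.5% of all genes, and 9 below it, against 41.4%. For the latrophilins, 5 of 7 measured ligands were called above it. Flrt2 was at 10.68, 10.68 and 11.03 and Flrt3 at 10.08 on every array, while the teneurin Tenm1 was at 6.62 on every array, under 100 units. Of the rest, Flrt1 (8.80), Tenm2 (8.11) and Tenm4 (8.63) had means above the background limit and Tenm3 (7.21) a mean below it. Flrt2 was thus highest in replicate 3, the array in which Adgrl2 was lowest, as was Tenm4, whereas Flrt3, Tenm1, Tenm2 and Tenm3 had the same value on every array. A relation between ligand and receptor levels was not tested.

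For Adgre5, Cd55, a regulator of complement, was at 5.33 on every array, under both limits, whereas Thy1 was at 8.57, 9.07 and 8.88 and the integrin chains Itga5, Itgav, Itgb1 and Itgb3 were all called above the background limit. Itgb1, the shared beta chain of many integrins, was at 12.10 on every array. The means of the other chains were 9.53 (Itga5), 9.11 (Itgav) and 8.67 (Itgb3). The call of Thy1 above the background limit was lost whichever array was left out (adjusted p = 0.0580, 0.123 and 0.172 by limma without replicates 1, 2 and 3).

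For Adgrg1 and Adgrg6, 8 of 9 ligands were called above the background limit. Tgm2, which encodes transglutaminase 2, was at 10.74, 10.65 and 10.74, and Col3a1 was at 8.17 on every array. The basement membrane chains Col4a1, Col4a2, Lamb1 and Lamc1 had means from 9.22 to 10.72 and were each lowest in replicate 3. Calls above the background limit were lost for Col4a2 without replicate 1 (adjusted p = 0.0820) or 2 (0.0683), for Lamb1 without replicate 1 (0.0535) or 2 (0.0671) and for Lamc1 without replicate 2 (0.0506). Plxnb2, a semaphorin receptor, was at 8.94 on every array, and Prnp, the prion protein, which binds Adgrg6, was at 8.97, 9.09 and 8.55 and lost its call without replicate 1 (adjusted p = 0.182) or 2 (0.155). Lama2, whose laminin chain binds Adgrg6, was at 7.25 on every array, below the background limit.

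Of the 6 genes of the Wnt7 and Reck complex, 5 were called above the background limit, with Reck at 9.84 on every array and the receptor Fzd4 at 9.87, 9.74 and 9.74. The coreceptors Lrp5 and Lrp6 had means of 9.75 and 10.04. Wnt7a was at 7.52 on every array and was called below it, and Wnt7b was at 8.17 on every array, 0.22 above it. Of 7 ligands of Adgrf5 and subfamily B, 1 (C1ql2, 8.16 ± 0.02, SD, n = 3) was called above the limit, a call lost without replicate 2 (adjusted p = 0.0508), and 4 were called below it. Sftpd, a surfactant protein that binds Adgrf5, was at 7.62 on every array and was called below. Fndc4 had a mean of 7.65, C1ql1 of 7.78, C1ql3 of 7.78, C1ql4 of 7.58 and Rtn4r of 7.83.

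**Figure D4:**
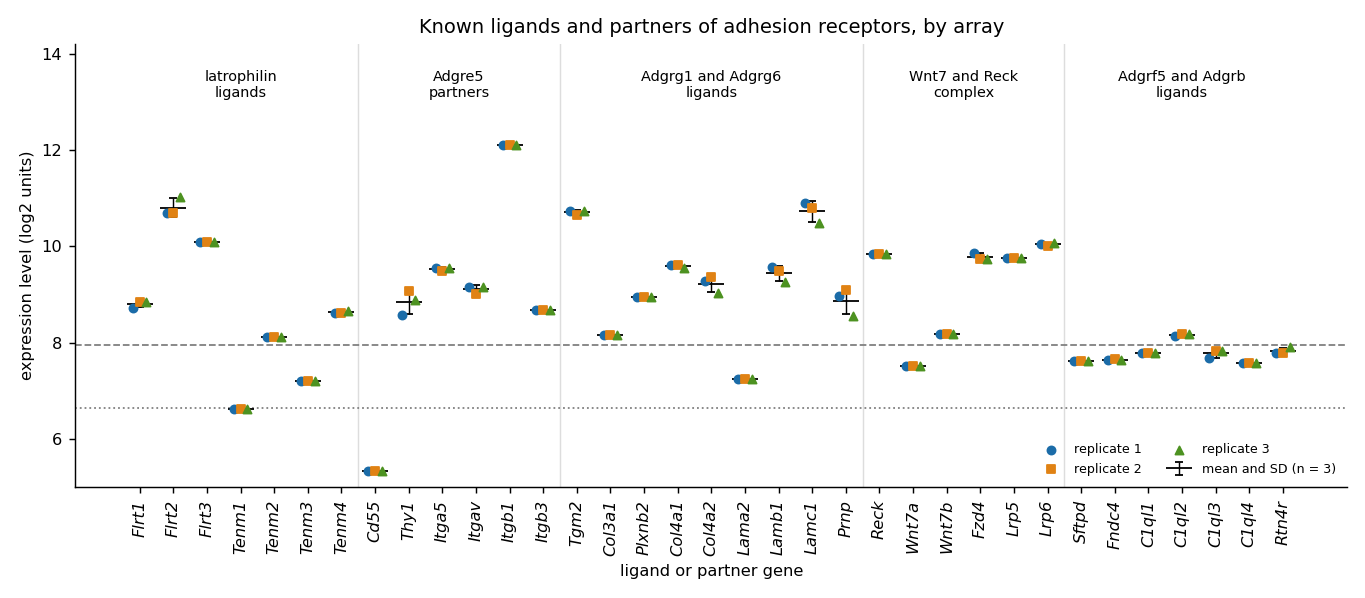
Level (log2 units, y axis) of 35 genes of known ligands and partners of adhesion receptors (x axis, grouped by receptor) on the arrays of replicates 1, 2 and 3, with mean and SD as black bars, the background limit dashed and 100 units dotted. Cd55 lies under 100 units, Itgb1 lies far above both lines, and most ligands of Adgrf5 and subfamily B lie between the lines.

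Within the cell, G alpha, beta and gamma chains, effectors, arrestins and receptor kinases were measured for 46 genes, of which 31 were called above the background limit, against 52.5% of all genes, and 12 below, against 41.4%. Of 11 G alpha genes 6 were called above it, among them Gnai2 at 12.26, 12.20 and 12.13 and Gnai3 at 11.38, 11.03 and 11.16, whose chains inhibit adenylyl cyclase. Gna15, a chain of blood cells, was at 6.41 on every array and under 100 units.

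Of 11 G beta and gamma genes 9 were called above the background limit, with Gnb1 at 12.26, 12.11 and 12.04. Of 18 effector genes 14 were called above it and 4 below. All 4 genes below it encode adenylyl cyclases, given here with the rest of the cyclases after their values were seen, with means of 7.44 (Adcy2), 7.63 (Adcy3), 7.65 (Adcy5) and 7.09 (Adcy8), whereas the cyclase genes Adcy1 (8.08), Adcy4 (9.96), Adcy6 (9.26), Adcy7 (8.29) and Adcy9 (8.66) were called above it. Of 6 arrestin and receptor kinase genes, which end receptor signaling, 2 were called above it and 3 below. Arrb1 was at 8.47, 8.94 and 9.07, with replicate 1 the lowest, and its call was lost without replicate 2 (adjusted p = 0.214) or 3 (0.184). Grk5 was at 9.16, 9.09 and 9.13, above both limits on every array.

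The family also includes the cadherin receptors of the Celsr genes, whose symbols lack the Adgr form. Celsr1, which acts in planar cell polarity, was at 8.91 on every array and was called above both limits. Celsr2 was at 8.04, 8.04 and 8.13 and was called above the background limit by limma (adjusted p = 0.0353), a call lost without replicate 1 (adjusted p = 0.183) or replicate 2 (adjusted p = 0.177). The call was kept without replicate 3, when the remaining arrays held one value. Celsr3 was at 7.42, 7.48 and 7.47 and was called below it.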

How the data were processed

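Endothelial cells of the adult medulla, sorted as Tie2-GFP positive, were profiled on 3 Affymetrix Mouse Gene 1.0 ST arrays (1 colour) after 1 round of NuGEN WT-Ovation Pico amplification. Values are the authors' log2 levels per deposited probe set; the labels name Affymetrix Expression Console and the study RMA, a background correction, quantile scaling and median polish, and the log2 scale was taken from their range (3.55 to 14.4). No source used here gives their genome build. Of 35557 probe sets, 21789 had 1 gene, 1621 had several in the platform annotation and 12147 were unnamed here; symbols were updated to RefSeq for 21698 (99.6%), and the highest-mean probe set stood for each of 19938 genes, 999 of which had several. Fits used limma 3.58.1 in R 4.3.3 (intercept only, on the level minus a limit, two-sided). P-values were adjusted by Benjamini-Hochberg across the 19938 genes and called under 0.05. The fit was tested on simulated data whose spreads came from genes with 3 different values. Those data held no genes with equal values on all arrays, unlike 46.3% of the genes here, so they cannot vouch for the p-values of such genes. Members and lists were chosen with earlier results of these data known. Named genes were every member, Celsr and ligand gene, and of the other lists the first few in written order with a few on the other side of the background limit. Pairs of arrays shared 43.0 to 45.1% of values and array medians differed by at most 0.03. The number of arrays limits the precision. P-values cover only the spread in the deposited values of 3 pools that the study calls independent. For the 46.3% of genes with equal values on all arrays there is none, so the p-values need not measure the spread between pools. Batches could not be examined. Alternatives were other limits, probe set rules, scalings, priors, filters and each array left out.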

Additional observations from a re-analysis of the deposited data

How the results depend on the processing

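With a limit of 50 units in place of 100, 25 members were called above (94.3% of all genes) and 0 below (5.0%), and the 8 low members reversed and lay above it on the log2 scale by 0.78 (Adgrb3), 0.54 (Adgre1), 0.53 (Adgre4), 0.92 (Adgrf2), 0.80 (Adgrf4), 0.86 (Adgrg2), 0.88 (Adgrl3) and 0.85 (Adgrv1). With 200 units, Adgrg4 (-0.95) and Adgrg7 (-0.78) fell under the limit. With the background limit at the 99th percentile, 5 members were called above (30.1% of all genes), 18 below (61.9%) and 6 passed it on all arrays (32.8%), and the differences became -0.32 (Adgra1), -0.32 (Adgra2), -0.30 (Adgra3), -0.64 (Adgrb1), -0.67 (Adgrb2) and -0.73 (Adgrd1). The probe set with the lowest mean put Adgrl2 at -0.35. With the prior variance from genes with 3 different values, 4 members were called below 100 units. Fitting only genes with at least 100 units on at least 1 array left 0 members to call below 100 units and 3 below the background limit. That outcome was fixed in advance, because the filter removes the 8 members under 100 units on all arrays. With 1 array left out, 13 to 15 members were called above 100 units (77.7 to 78.8% of all genes) and 10 above the background limit (42.8 to 43.8%), and 46 to 50 of the 81 ligand and signaling genes were called above it against 55 with every array. No paired analysis was possible because all samples belong to 1 group. The low members' calls under 100 units lie within 0.5 of it, and the small number of arrays, with equal values for many genes, limits every p-value.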
